A study of Mus musculus with 6 samples.

Results

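The Notch receptors, ligands and targets described here are 10 genes whose symbol stood in a row of the expression table, out of 19730 rows. They are the receptors Notch1, Notch2 and Notch3, the ligands Jag1, Jag2 and Dll1, and the target genes Hes1, Hey1, Hey2 and Heyl. Each had 1 row. RNA-Seq was done on mesangial cells, which hold the capillary loops of the kidney glomerulus together and can contract. The cells were primary cells of the mouse, and the labels name no strain, genotype, age or transgene. All 6 libraries came from cells between passages 3 and 6, in medium with 25.5 mM glucose and 20% serum. The 3 TGF-β1 libraries came from cells that also received TGF-β1, a secreted protein that drives scarring, at 10 ng/ml for 72 h. The 3 Control libraries came from cells without it. Values are FPKM (fragments per kilobase of transcript and per M, or mega, of mapped fragments), which are corrected for transcript length and library size. Nothing states whether the 3 libraries of a group came from separate cultures, so the p-values measure only the spread between these libraries.

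Notch signalling passes from cell to cell. A ligand of the Jagged or Delta-like family on one cell binds a Notch receptor on its neighbour, and the receptor is then cut by an ADAM protease and by γ-secretase. The freed intracellular part enters the nucleus, where it joins the DNA-binding protein RBPJ and a Mastermind coactivator and turns on genes such as those of the Hes and Hey repressors. In the kidney the pathway is known for its part in nephron formation, and it is also studied in glomerular disease and fibrosis.

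The libraries held an estimated 9.97 to 10.93 M fragments. Cell type markers were checked against the label. Of those for mesangial cells and pericytes, Vim, Acta2 and Pdgfrb (28.4 to 41.1 FPKM over the 6 libraries) were present. Mcam and Gata3 had control means of 16.1 and 1.76 FPKM. Itga8, a mesangial integrin, was at most 0.174 FPKM. Des, Thy1, Cspg4 and Rgs5 were also low, with control means of 0.271, 0.0196, 0.0735 and 0.0864 FPKM. Of these, Cspg4 had a mean of 1.21 FPKM in treated libraries. The summed level of this list of 10 rows was 2890 to 3430 FPKM in control and 7290 to 7630 FPKM in TGF-β1-treated libraries. Most of it was Vim (mean 2190 FPKM in control and 3440 FPKM in treated libraries) and Acta2 (997 and 3890 FPKM). The Vim row names a transcript of 479 bases and the Mcam row one of 1061 bases, each stopping short of its gene's end. Whether these values are those of the genes is not stated, so both levels, and the sum, are uncertain. Of the 5 rows tested 3 were called higher and 1, Pdgfrb, lower. Of the 8 endothelial markers with a row, none reached a mean of 1 FPKM. Their sum was 0.891 to 1.33 FPKM in control and 0.625 to 1.51 FPKM in treated libraries, led by Vwf, with Cdh5 listed at 0 in every control library and Pecam1 at most 0.138 FPKM. The sum of 6 podocyte markers was 27.8 to 32.2 against 15 to 15.6 FPKM, led by Synpo, with 4 of 4 rows tested called lower. The sum of 7 tubular epithelial markers was 223 to 286 against 33.5 to 38.4 FPKM, and both rows tested were called lower, Cdh16 from 130 ± 16.1 to 6.3 ± 0.564 FPKM and Pax8 from 120 ± 15.4 to 27.1 ± 2.4 FPKM (SD, n = 3 each). These 2 genes made up most of the sum, and members under the filter did not all follow them. Without the filter Lrp2 was called lower (-0.97, limma adjusted p = 0.00369), while Krt18 (1.01, limma adjusted p = 0.00143) and Slc12a1 (0.37, limma adjusted p = 0.0125) were called higher. Cdh1 was at most 0.123 FPKM. The sum of 5 macrophage and leukocyte markers was 87 to 114 against 9.03 to 11.3 FPKM, led by Cd14, with 2 of 3 rows tested called lower and Ptprc at most 0.0448 FPKM. Fewer cells of a type and less RNA per cell cannot be told apart in these bulk libraries. The mesangial sum, carried by Vim and Acta2, moved in the direction of Jag1, Hes1, Hey1 and Hey2, while Pdgfrb moved the other way. The tubular, podocyte and macrophage sums moved in the direction of Notch1 and Notch2. The part of these cell types in those results was not tested. TGF-β1 replicate 2 deviated from its group with the GC content of the gene (Spearman's rho -0.36 across genes, against 0.248 and 0.288 for replicates 1 and 3). Results for Notch3, Notch4 and Spen are given below with and without that library.

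On the mouse genome build mm9 the receptor genes lie at 2:26313423-26372183 on the minus strand (Notch1), 3:97817461-97954290 on the plus strand (Notch2) and 17:32257765-32303825 on the minus strand (Notch3). The ligand genes lie at 2:136907192-136942380 (Jag1), 12:114146801-114167706 (Jag2) and 17:15504318-15513836 (Dll1), each on the minus strand. The target genes lie at 16:30064470-30067882 on the plus strand (Hes1), 3:8663362-8667039 on the minus strand (Hey1), 10:30552165-30562607 on the minus strand (Hey2) and 4:122910799-122927118 on the plus strand (Heyl). Notch1, Notch3 and Dll1 each overlap an annotated gene on the opposite strand. Whether strand was used in the estimate is not stated, so their values may hold reads of that partner. The Hes1 row names a short non-coding transcript of the gene and not its coding transcript, and it is not stated whether the value is that of the gene. The level of Hes1 is therefore uncertain, and the change given for it is that of this row.

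Promoter sequence of GRCm38.p6 was found in a RefSeq table for 7 of the 10 members, Hes1, Hey1 and Heyl being those without an entry. It was searched on both strands for GTGGGAA, the sequence that RBPJ is known to prefer, for its core TGGGAA, which every GTGGGAA contains, and for CACNAG, the N box that Hes repressors are known to bind. The windows run from 250 bases before the gene's start to 50 bases after it. Hey2, which was upregulated, held GTGGGAA at 2 places. The promoters of Jag1, Jag2, Dll1, Notch1, Notch2 and Notch3 held neither GTGGGAA nor its core. The window of Nrarp, an upregulated gene outside the 10 members, also held neither, and it held 2 matches to CACNAG. Of 32851 promoters in the table, 6.38% held at least 1 GTGGGAA and 0.256% held at least 2, and 25.6% held at least 1 core. Notch1, which was downregulated, held 3 matches to CACNAG, of which 2 overlap each other on opposite strands at the start. Notch3, which was not called, held 2 matches, Notch2 held 1, and Jag1, Jag2 and Hey2 held none. Dll1 had more than 1 window. The window that holds the start of its row's transcript held no match, and the window farther upstream held 1. At least 1 such match stood in 42.5% of promoters and at least 3 in 2.1%. Both windows are shown 5′ to 3′ on the strand of the gene, without the last 20 bases, so that the matches can be seen in place (capitals: GTGGGAA on either strand in Hey2, CACNAG on either strand in Notch1). The Hey2 window lies at chr10:30842754-30843033 and the Notch1 window at chr2:26503793-26504072 of GRCm38.p6, both on the minus strand. A match describes the letters and shows no binding.
Hey2: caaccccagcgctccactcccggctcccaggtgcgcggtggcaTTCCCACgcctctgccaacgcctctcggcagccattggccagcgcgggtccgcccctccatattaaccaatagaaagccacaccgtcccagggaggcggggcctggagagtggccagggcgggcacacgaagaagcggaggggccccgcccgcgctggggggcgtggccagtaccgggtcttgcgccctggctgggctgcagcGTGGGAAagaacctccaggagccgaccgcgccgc
Notch1: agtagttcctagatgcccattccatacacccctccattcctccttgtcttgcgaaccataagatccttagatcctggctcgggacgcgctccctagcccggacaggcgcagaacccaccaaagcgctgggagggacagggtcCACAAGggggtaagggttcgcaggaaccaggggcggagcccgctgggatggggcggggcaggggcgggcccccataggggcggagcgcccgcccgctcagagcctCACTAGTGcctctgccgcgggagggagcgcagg

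The comparison asks which genes of the pathway changed with TGF-β1. Jag1 changed the most of the 10 members and rose, Hes1, Hey1 and Hey2 rose, Notch1 and Notch2 fell, and Notch3, Dll1, Jag2 and Heyl were not called. Changes are differences of log2(FPKM + 1), a scale that understates the change of low genes, tested with limma over all rows. Rows with a mean of at least 1 FPKM over the 6 libraries were tested, and an adjusted p under 0.05 was called. Of the 10 members, 7 passed this filter, of which 4 were called higher and 2 lower. Hey1 passed only through its level in the treated libraries, so the counts among the members that passed describe these genes and support nothing. Of all 11898 rows tested, 48.1% were called, 24.5% higher and 23.6% lower, so a call by itself does not set a gene apart from the rest of the transcriptome. Without the filter the same test called 4 members higher and 2 lower of 10, beside 30.5% of all 19730 rows.

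**Figure D1:**
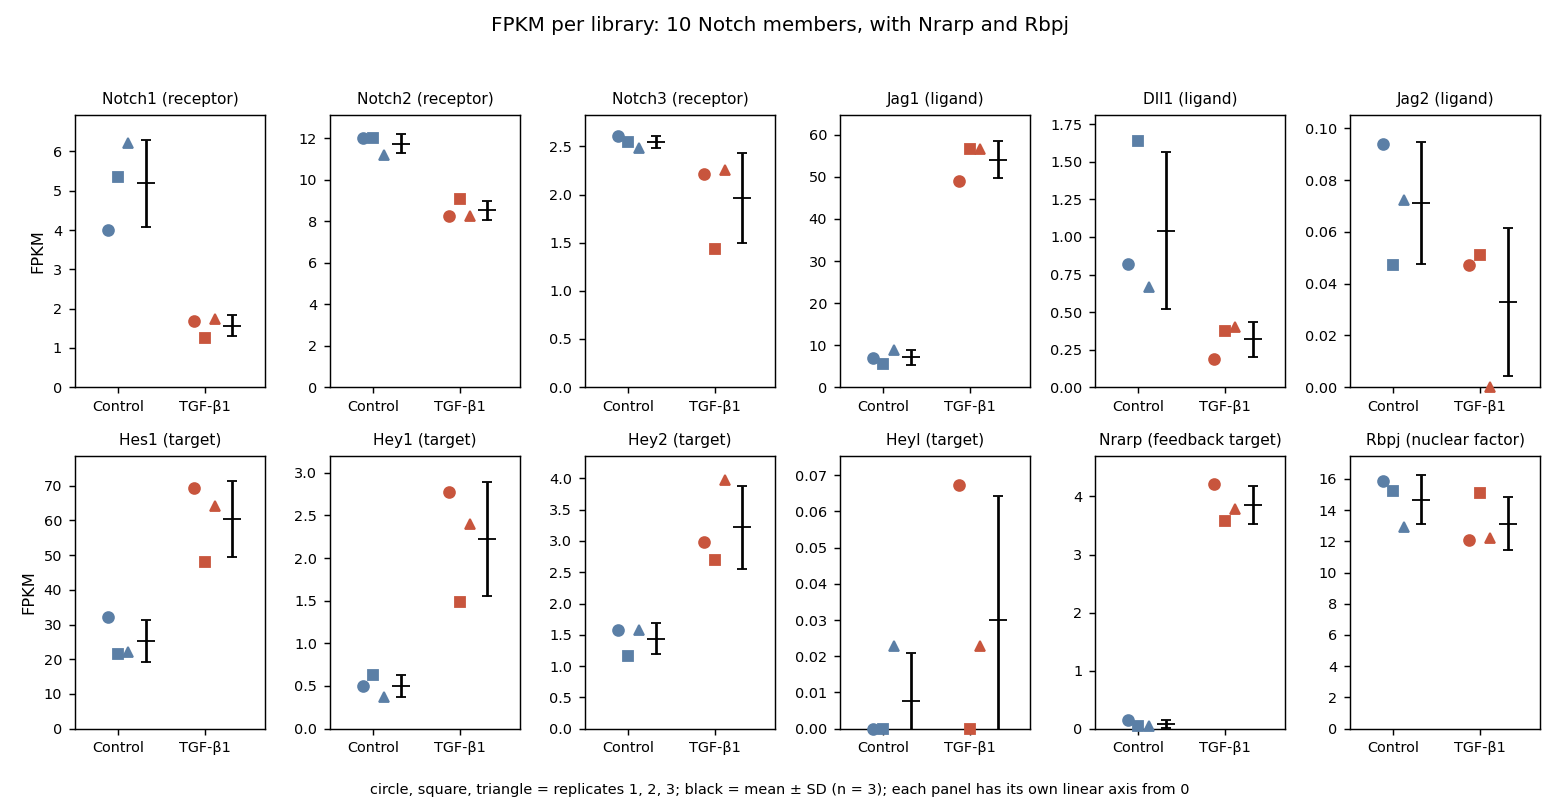
FPKM (vertical, linear, each panel on its own axis from 0) in the 3 Control and 3 TGF-β1 libraries for the 10 members, Nrarp and Rbpj, with the mean ± SD in black. Jag1 lay between 5.4 and 8.84 FPKM in control and between 49 and 56.7 FPKM in treated libraries, while the groups overlapped for Jag2, Heyl and Rbpj.

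Among the receptors, Notch1, which is expressed widely and is the founding member of the family, stood at 4.01, 5.34 and 6.21 FPKM in Control replicates 1 to 3. In the TGF-β1 libraries it stood at 1.69, 1.25 and 1.74 FPKM. All treated libraries lay below all control libraries. The mean fell from 5.19 ± 1.11 to 1.56 ± 0.271 FPKM (SD, n = 3 each), 3.33-fold higher in control. The change was -1.26 on the log2 scale (95% interval -1.67 to -0.86, limma adjusted p = 0.00145), the 613th largest decrease over all rows.

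Notch2, the receptor with the highest level in both groups and one needed for glomerular development, was measured at 12, 12 and 11.2 FPKM in control cells. After TGF-β1 it was 8.26, 9.05 and 8.27 FPKM. The groups did not overlap and the replicates of each lay close together. The mean fell from 11.7 ± 0.427 to 8.53 ± 0.455 FPKM, a change of -0.42 (95% interval -0.61 to -0.23, limma adjusted p = 0.00597). The change was near the median size over all rows, which was 0.4 without regard to sign.

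Notch3, a receptor known from mural cells of vessels, had 2.61, 2.55 and 2.48 FPKM in control libraries. The treated libraries had 2.21, 1.43 and 2.26 FPKM. All were below control, but groups that did not overlap were found in 59.4% of all rows tested, and the difference did not pass the test (-0.27, 95% interval -0.62 to 0.08, limma adjusted p = 0.169). The lowest value was that of TGF-β1 replicate 2, and without that library the change was -0.13 with a limma adjusted p of 0.366. Notch4, a receptor of endothelium that is not among the 10 members, had 1.33, 2.26 and 1.51 FPKM in control and 0.856, 0.471 and 1.23 FPKM in treated libraries. It also lay lower in each treated library without passing the test (-0.55, limma adjusted p = 0.0729), and replicate 2 was again the lowest. Without TGF-β1 replicate 2 the change of Notch4 was -0.39 with a limma adjusted p of 0.168.

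The 4 receptors together summed to 19.9, 22.1 and 21.5 FPKM in control and to 13.0, 12.2 and 13.5 FPKM in treated libraries. The share of Notch1 in this sum was 20.1%, 24.1% and 29.0% in control and 13.0%, 10.2% and 12.9% in treated libraries. Notch2 supplied 55.5% ± 4.04 in control and 66.3% ± 6.91 after treatment (SD, n = 3 each). The order of Notch1 and Notch3 turned over within the libraries. The ratio of Notch1 to Notch3 was 1.54, 2.09 and 2.5 in control and 0.763, 0.869 and 0.769 in treated libraries, although the ranges of the 2 receptors overlapped after treatment. Such ratios are given as descriptions, since an exact permutation test of 3 against 3 libraries cannot give a two-sided p below 0.1.

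Among the ligands, Jag1, a Jagged ligand found in many epithelial and mesenchymal cells, stood at 7, 5.4 and 8.84 FPKM in the control libraries. In the TGF-β1 libraries it reached 49, 56.7 and 56.6 FPKM. Every treated library was several times above every control library. The mean rose from 7.08 ± 1.72 to 54.1 ± 4.41 FPKM, a ratio of 7.65. The change was 2.79 on the log2 scale (95% interval 2.39 to 3.19, limma adjusted p = 6.97e-05), the 85th largest increase over all rows tested. Leaving out each library in turn gave changes of 2.63 to 2.94.

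Dll1, a Delta-like ligand, was measured at 0.817, 1.64 and 0.67 FPKM in control and at 0.185, 0.372 and 0.401 FPKM in treated libraries. These values correspond to about 30, 60 and 24 fragments against 7, 13 and 14. The treated libraries were all lower, but Control replicate 2 held about as many fragments as the other 2 control libraries together, and the mean was under the filter. In the test without the filter the change was -0.6 (95% interval -1.06 to -0.15) and was not called, with a limma adjusted p of 0.0568. The adjusted p lay between 0.0328 and 0.185 over the alternatives and passed in 2 of them, so the call depended on the setting.

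Jag2, the other Jagged ligand, was barely detected. It had 0.094, 0.047 and 0.0722 FPKM in control and 0.0473, 0.0512 and 0 FPKM in treated libraries, about 4 fragments or fewer in each. At this depth a difference was not detectable (limma adjusted p = 0.406 without the filter). Of the Delta-like genes outside the 10 members, Dll4 and Dll3 were also barely detected. Dll4, a ligand of endothelium, was at most 0.234 FPKM and its groups overlapped (limma adjusted p = 0.526). Dll3 was listed at 0 in all but Control replicate 3, which had 0.237 FPKM. Dlk2, a Delta-like protein that lacks the part other Delta-like ligands use to activate the receptor, had 0.868, 0.959 and 1.78 FPKM in control and 0, 0 and 0.0752 FPKM in treated libraries. Its mean was under the filter, and the test without it called the decrease (-1.08, limma adjusted p = 0.00436). Dlk1, whose row names a transcript with a retained intron, had 1.12, 0.304 and 0.311 FPKM in control libraries. It had 0.727, 1.39 and 0.695 FPKM in treated libraries, and the groups overlapped (limma adjusted p = 0.401 without the filter).

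The ligand messages that were measured were thus mostly Jag1. Its share of the summed FPKM of Jag1, Jag2, Dll1, Dll3 and Dll4 was 86.5%, 76.0% and 90.0% in control and 99.4%, 99.1% and 98.9% in treated libraries. The ligand sum divided by the receptor sum was 0.406, 0.321 and 0.458 in control libraries. In treated libraries it was 3.79, 4.69 and 4.24. Receptor message was more abundant than ligand message in every control library, and the reverse held in every treated library. The ratio of Jag1 to Notch2 alone was 0.607 ± 0.169 in control and 6.35 ± 0.462 after TGF-β1 (SD, n = 3 each).

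**Figure D2:**
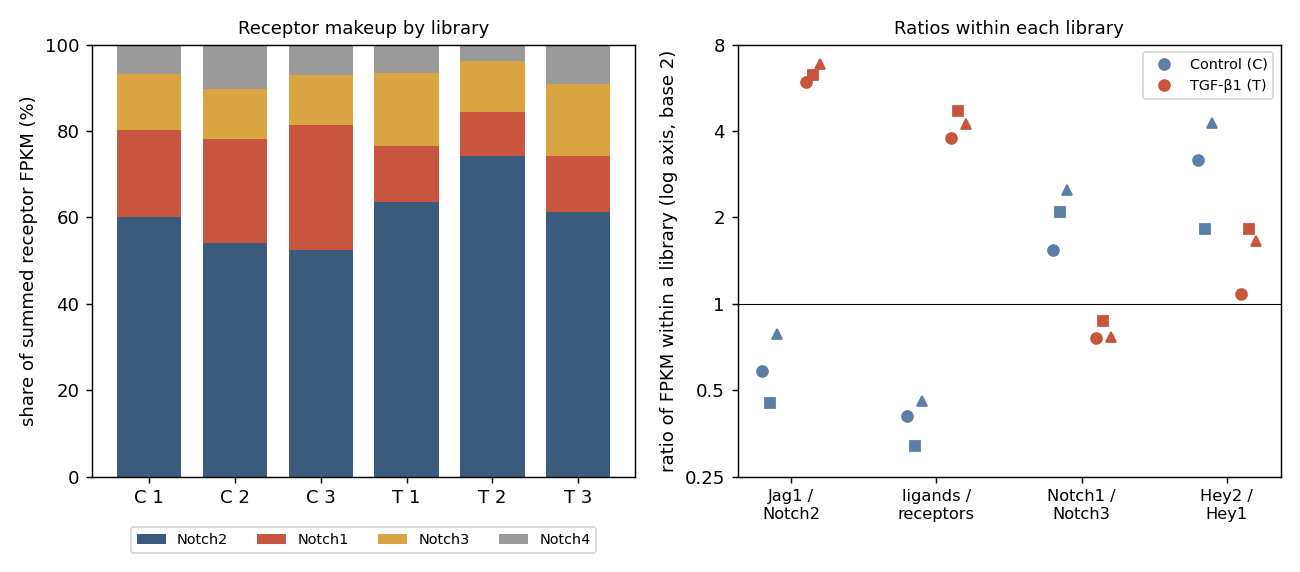
Left, share of each receptor in the summed receptor FPKM (percent) for Control (C) and TGF-β1 (T) replicates 1 to 3. Right, ratios of FPKM within each library on a log axis of base 2, where Jag1 over Notch2 and ligands over receptors lay below 1 in control and above 1 in treated libraries, and Notch1 over Notch3 the other way.

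Among the targets, Hes1, a transcriptional repressor of the basic helix-loop-helix family, stood at 32.3, 21.4 and 22.2 FPKM in control libraries. In treated libraries it stood at 69.2, 48.1 and 64.1 FPKM. The lowest treated library lay above the highest control library. The mean rose from 25.3 ± 6.07 to 60.5 ± 11 FPKM, a ratio of 2.39, with a change of 1.23 (95% interval 0.74 to 1.72, limma adjusted p = 0.00347). The uncertainty about the transcript of this row, given above, applies to these levels.

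Hey1, a related repressor that partners with Hes1, was low in control cells at 0.496, 0.632 and 0.37 FPKM. It was 2.78, 1.48 and 2.4 FPKM after TGF-β1. The groups did not overlap, and the treated libraries spread more widely, with replicate 2 the lowest. The mean rose from 0.5 ± 0.131 to 2.22 ± 0.666 FPKM, a ratio of 4.44, which rests on about 33 fragments in the control and 141 in the treated libraries. The change was 1.08 (95% interval 0.62 to 1.54, limma adjusted p = 0.00457).

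Hey2, the Hey repressor best known from heart and vessels, had 1.58, 1.16 and 1.58 FPKM in control and 2.99, 2.69 and 3.97 FPKM in treated libraries. Again no treated library reached down to the control range. The mean rose from 1.44 ± 0.244 to 3.22 ± 0.67 FPKM, a ratio of 2.24, and the change was 0.78 (95% interval 0.41 to 1.16, limma adjusted p = 0.00733). Its promoter is the one shown above with GTGGGAA at 2 places. Heyl, the third Hey gene, was listed at 0 in 3 of the 6 libraries and was at most 0.0674 FPKM, which is about 3 fragments. A change was not detectable at this depth (limma adjusted p = 0.59 without the filter).

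The Hey genes summed to 1.94 ± 0.145 FPKM in control and 5.46 ± 1.15 FPKM in treated libraries. The ratio of Hey2 to Hey1 was 3.18, 1.83 and 4.26 in control libraries and 1.08, 1.82 and 1.66 in treated libraries. Hey2 was above Hey1 in all 6 libraries. The lowest control ratio and the highest treated ratio, both of replicate 2, lay side by side at 1.83 and 1.82. Endothelial cells are known for high Hey1, Hey2, Dll4 and Notch4. The endothelial markers given above were near 0 in both groups, and whether such cells contributed to these values was not tested.

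In order of level, Hes1 came first in the control libraries, followed by Notch2, Jag1, Notch1, Notch3, Hey2, Dll1, Hey1, Jag2 and Heyl. The place of Hes1 is uncertain in either group, since its row names a short non-coding transcript. The ranges of Jag1 and Notch1 overlapped, as did those of Hey2 and Dll1, and other neighbours did not overlap. After TGF-β1 the order was Hes1, Jag1, Notch2, Hey2, Hey1, Notch3, Notch1, Dll1, Jag2 and Heyl. Here Hes1 and Jag1 overlapped, the neighbours from Hey2 to Notch1 overlapped, and so did Jag2 and Heyl. Jag1 passed from the range of Notch1 to a level well above Notch2, and Notch1 passed from a level above Notch3 to the foot of a group with Hey1, Hey2 and Notch3.

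**Figure D3:**
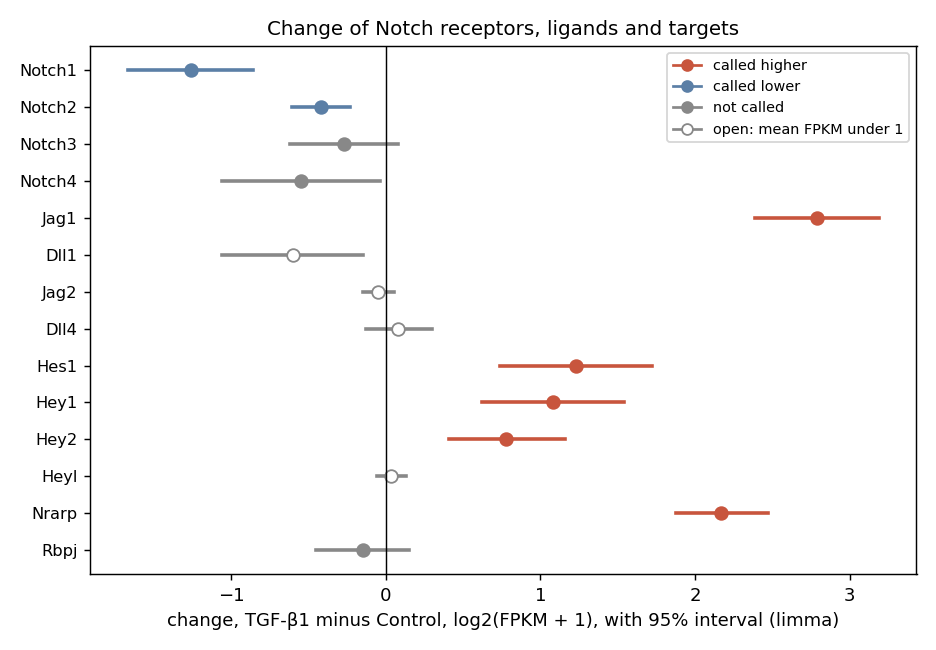
Change between TGF-β1 and Control on the log2(FPKM + 1) scale with its 95% interval from limma, for the 10 members and for Notch4, Dll4, Nrarp and Rbpj (colour: called higher, called lower or not called; open symbols: mean under 1 FPKM, from the test without the filter). Jag1 at 2.79 and Nrarp at 2.17 lay farthest to the right and Notch1 at -1.26 farthest to the left.

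The wider pathway was described with a list of 61 other genes, of which 55 had a row and 46 passed the filter. Of these, 10 were called higher, 11 lower and 25 were not called, that is 45.7% called beside 48.1% of all rows. Without TGF-β1 replicate 1 the counts were 5 higher and 7 lower, and 6 were higher without Control replicate 2, Control replicate 3 or TGF-β1 replicate 3. Their median change was -0.14, beside -0.017 over all rows. The list as a whole was therefore called about as often as any row, and the description below goes by role.

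Nrarp, a feedback inhibitor that is itself a known Notch target, had 0.152, 0.0381 and 0.0391 FPKM in control libraries, about 4, 1 and 1 fragments. It had 4.22, 3.58 and 3.78 FPKM in treated libraries, about 108, 85 and 96 fragments. It was close to absent in control cells and present in every treated library. The ratio of the summed fragments, scaled for depth, was 49.7 with a counting interval of 22.5 to 136, which covers counting error only, and the change was 2.17 (limma adjusted p = 5.77e-05). Nrarp passed the filter only through the treated libraries. Of the other targets on the list, Hes6 was at 27.4 ± 4.81 FPKM in control and 27.1 ± 3.34 FPKM in treated libraries (limma adjusted p = 0.956), and Hes5 had no row.

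Rbpj, the DNA-binding partner of the receptor's intracellular part, had 15.9, 15.2 and 12.9 FPKM in control and 12.1, 15.1 and 12.2 FPKM in treated libraries. The groups overlapped and the change was -0.15 (95% interval -0.45 to 0.15, limma adjusted p = 0.356). Of the 7 genes of the nuclear complex tested, none was called higher and 2 were called lower. Maml3, a Mastermind coactivator, fell from 5.89 ± 0.082 to 2.77 ± 0.423 FPKM (-0.87, limma adjusted p = 0.00115), while Maml1 (-0.01) and Maml2 (-0.06) were not called.

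Of the 10 corepressors tested, 6 were called lower. Tle2, a Groucho-family corepressor that Hes proteins recruit, fell from 58.1 ± 7.61 to 12.2 ± 2.99 FPKM (-2.18, limma adjusted p = 0.000285), with the limit that its row names a transcript with a retained intron. Cir1, which binds RBPJ, fell from 19.9 ± 1.9 to 13.1 ± 2.02 FPKM (-0.57, limma adjusted p = 0.0132). Kdm5a, a histone demethylase, fell from 33.6 ± 5.26 to 22.3 ± 2.6 FPKM (-0.57, limma adjusted p = 0.0165), and this call was lost without TGF-β1 replicate 3 (0.0505). The call of Spen, a partner of RBPJ in repression, was unstable. It had 3.54, 4.2 and 7.56 FPKM in control and 2.27, 1.67 and 3.08 FPKM in treated libraries (-0.83, limma adjusted p = 0.0465). Without Control replicate 2, Control replicate 3, TGF-β1 replicate 1 or TGF-β1 replicate 2 its adjusted p was 0.0754, 0.0782, 0.107 and 0.121.

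Other genes act on the receptor before it signals. Furin, the convertase that cleaves the receptor precursor on its way to the surface, rose from 21.7 ± 4.59 to 49 ± 2.76 FPKM (1.15, limma adjusted p = 0.00133), although its row also names a transcript with a retained intron. Adam17 was called higher and Adam10 was not. Among the 6 γ-secretase genes tested, Aph1b was called higher (0.41) and none was called lower. Of 4 glycosylation genes, which modify the receptor's outer part, Pofut1 (0.28) and Poglut1 (0.35) were called higher.

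On the ligand side, Neurl1b, a Neuralized-type ubiquitin ligase that promotes ligand uptake, fell from 5.97 ± 0.827 to 0.322 ± 0.116 FPKM. Its libraries had 5.39, 6.92 and 5.61 FPKM in control and 0.305, 0.445 and 0.216 FPKM after TGF-β1. No other gene of the list fell as far on the log2 scale among those tested (-2.4, limma adjusted p = 5.91e-05). Of the other ligand endocytosis genes tested, Epn2 was called higher (0.42) and Mib1, Mib2 and Epn1 were not called. Of 8 genes of receptor trafficking and turnover, 1 was called higher and 2 lower. Fbxw7, the ubiquitin ligase subunit that marks the intracellular part of Notch for destruction, rose from 9.64 ± 1.2 to 19.4 ± 0.419 FPKM (0.95, limma adjusted p = 0.000664). Dtx4 and Dtx3, members of the Deltex family, fell from 31.5 ± 2.52 to 12.1 ± 0.983 FPKM (-1.31, limma adjusted p = 0.000154) and from 154 ± 8.23 to 86.2 ± 15.6 FPKM (-0.84, limma adjusted p = 0.00322).

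**Figure D4:**
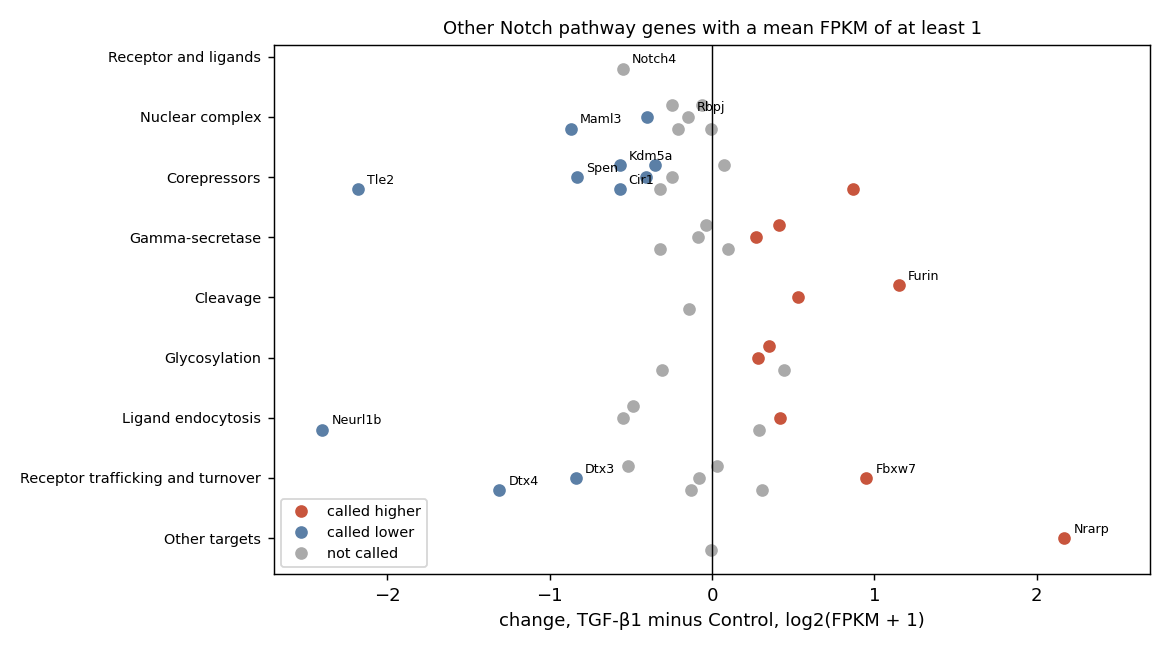
Change between TGF-β1 and Control on the log2(FPKM + 1) scale for the 46 other pathway genes tested, in rows by role (vertical offsets within a row only separate points). Nrarp at 2.17 lay farthest to the right, Neurl1b at -2.4 and Tle2 at -2.18 farthest to the left, and 6 of 10 corepressors were called lower.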

How the data were processed

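RNA-Seq of 3 Control and 3 TGF-β1 libraries was analysed from the deposited FPKM table. The authors filtered reads of low quality, aligned the remainder with TopHat to mm9 (TopHat2 2.0.11 per the submitters' processing notes) and used Cufflinks to estimate the deposited FPKM. They tested expression with a count model, and counts were not analysed here. Whether a row is a gene or a transcript, which annotation was used and whether strand was used are not given in the sources used here. Groups came from the treatment labels.

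A linear model per row (limma 3.58.1, R 4.3.3) was fitted to log2(FPKM + 1) wherever the mean over the libraries was 1 FPKM or more. It used lmFit and eBayes with a trend of variance on the mean, was two-sided, and p-values were adjusted by Benjamini-Hochberg over all rows. Members under that filter were taken from the same fit without it. On simulated data the steps were checked for recovery of known changes. Depth was estimated from low FPKM values of 1513 rows with 1 transcript, assuming fragments of 200 nt. For each library the depth was chosen that put most values within 0.1 of a whole number of fragments. Only nonzero values of few fragments were scored, 600 to 703 per library. At least 99.5% of them met this, a share that the choice itself maximised and that is no separate check. The depths were 10.93, 10.89 and 10.61 M fragments for Control replicates 1 to 3 and 10.81, 9.97 and 10.68 M for TGF-β1 replicates 1 to 3. Fragment numbers of genes with several transcripts are approximate, intervals cover counting error only, and no count model was run. Coordinates came from the mm9 annotation GENCODE M1, and promoter sequence from RefSeq on GRCm38.p6.

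The members and lists were chosen with earlier results of these data known. Genes named were the 10 members, Rbpj, Nrarp, Notch4, Dll4 and Hes5, the 12 other pathway genes called with the largest change, and for each cell type the defining markers with the marker of highest mean. A few genes that this rule selects are not reported here. Pathway genes named beyond these, and further markers, were chosen after their values were seen. Alternatives were 19 planned settings and 1 chosen after seeing the data, which combined no filter with a pseudocount of 0.1. Summaries and figures were made in Python 3.11.15 (pandas 2.3.3, numpy 2.4.6, matplotlib 3.10.9, scipy 1.17.1).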

Additional observations from a re-analysis of the deposited data

How the results depend on the processing

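Notch1, Notch2, Jag1, Hes1, Hey1, Hey2 and Nrarp kept their direction and their call under every alternative that tested them. With a mean of at least 3 FPKM, Hey1, Hey2 and Nrarp were not tested, which left 2 members called higher. At an adjusted p under 0.01, 3672 of all rows were called, and 5 other pathway genes were called higher and 5 lower. With replicates 1 and 3 alone, 6 other pathway genes were called higher. Leaving out each library in turn gave 4451 to 5422 rows called, 4 members higher and 2 lower each time, and 5 to 7 other pathway genes higher and 7 to 10 lower, with the fewest in both directions without TGF-β1 replicate 1. The decrease of Dll1 was called with a pseudocount of 0.1 (-1.4, limma adjusted p = 0.0492) and with replicate 2 as a batch term (-0.6, limma adjusted p = 0.0328). Jag2 turned from -0.05 to 0.1 once the GC trend was removed (limma adjusted p = 0.406), and no call was made in either case. Notch3 moved to -0.05 with the GC trend removed and to -0.06 with quantile normalisation, and it was called in no setting. Same-numbered Control and TGF-β1 libraries had correlations of 0.092, 0.232 and 0.085 between their deviations from the group means, so the numbers were not taken to pair them, and not every library correlated best with its own number. With the replicate number as a block, 5391 rows were called and the members' counts stayed at 4 higher and 2 lower. Depth limits Jag2, Heyl, Dll3 and Dll4, each with few fragments in a library.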
